A study of Mus musculus with 6 samples.

Results

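The 9 genes described here were grouped as genes of surfactant storage and handling in alveolar type 2 (AT2) cells of the lung: Abca3, Lamp3, Lpcat1, Slc34a2, Napsa, Ctsh, Lgi3, Dram1 and Muc1. Not all of them encode proteins known to act on surfactant itself, and what each encodes is given below. The 9 genes were chosen by name as genes of AT2 cells, with earlier results of these data known, and all 9 have a row among the 23224 genes of the table. All 9 also passed the filter on low counts, which 14416 genes passed. Their levels were compared across 3 culture conditions and 2 cell lines of mouse lung alveolar organoid cells, with bulk polyA RNA-seq.

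All 6 libraries came from cells with the genotype Sftpc-eGFP, which carry a fluorescent reporter named for the gene of surfactant protein C, and all cultures were collected 7 days after the switch of conditions. Before that the cells grew in drops of 90% matrigel, a basement membrane gel. The control condition, 3D FNHCS, kept cells in such drops in the medium named FNHCS. The same medium was used on flat cultures in 2D FNHCS, and in 2D FBS flat cultures received Ad-DMEM F/12 with 10% fetal bovine serum (FBS). The lines SN3593 and SN3595 each gave 1 library per condition, so n = 2 in every group. In the titles, type II stands for the 3D cultures, a mix of AT2 and alveolar type 1 (AT1) for 2D FNHCS, and type I for 2D FBS; AT1 cells are the thin cells across which gas is exchanged. The series text speaks of cells with and without eGFP. The sources used here do not say whether the cells were sorted on that reporter. Between 2D FNHCS and 2D FBS the serum was added and the FNHCS medium taken away together, and these changes cannot be told apart. The labels do not say that the lines are from separate animals; p-values here therefore measure the spread between these libraries, which may be partly technical.

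Surfactant is a mixture of phospholipids and a few proteins that lowers surface tension in the alveolus. AT2 cells build it in the endoplasmic reticulum, pack it into lamellar bodies, which are organelles related to lysosomes, and release it by exocytosis at the apical surface. Much of it is later taken up again and reused or degraded.

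Total expected counts ran from 33634368 to 43334665 per library. The 20 AT2 markers other than the 9 genes summed to 78100 to 102000 CPM (expected counts scaled by the TMM method to the same number of reads per library) in 3D FNHCS, 50000 to 61600 in 2D FNHCS and 2520 to 3140 in 2D FBS. The 20 AT1 markers summed to 4500 to 5230, then 9850 to 23700, then 38900 to 43200 CPM in the same order. The 3D libraries thus carried the AT2 markers that their label calls for, and in 2D FBS the AT1 markers stood above the AT2 markers in both lines. Sftpc took 3.37% and 4% of all counts in the 3D libraries, 5.91% and 4.36% on flat cultures in FNHCS, and 0.0401% and 0.0241% with serum. In 2D FNHCS most of the AT2 sum was Sftpc alone, at 51430 and 40990 CPM (SN3593 first). In 3D FNHCS Sftpc had 33500 and 41010 CPM. The AT2 sum in 2D FNHCS therefore says little about the other AT2 markers. Bulk libraries cannot tell fewer AT2 cells apart from less RNA of these genes per cell, and this holds for every difference below.

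Between flat and 3D cultures in the same medium, 4 of the 9 genes fell (Abca3, Lamp3, Slc34a2 and Dram1) and none passed the test in the higher direction (edgeR quasi-likelihood test, adjusted p below 0.05). Of all genes tested, 9.77% were lower and 8.63% higher in 2D FNHCS. Between the flat conditions, 6 of the 9 fell in 2D FBS (Lamp3, Lpcat1, Slc34a2, Lgi3, Dram1 and Muc1) and none rose, against 4.77% of all genes lower and 5.85% higher. Between 2D FBS and 3D FNHCS, 8 of the 9 fell and none rose, against 20.5% of all genes lower and 19.9% higher. Ctsh was the gene that did not pass the test in any of these comparisons. At an unadjusted p below 0.05, 1 of the 9 was higher in 2D FNHCS against 3D FNHCS (Lgi3), as it was after adjustment with DESeq2 and limma-voom, and 0 were higher in the comparisons with 2D FBS by edgeR, DESeq2 or limma-voom.

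The median log2 fold change over the 9 genes was -1.25 in 2D FNHCS against 3D FNHCS, -2.64 in 2D FBS against 2D FNHCS and -3.89 in 2D FBS against 3D FNHCS. Over all genes tested it was 0.03, -0.06 and -0.03. Together the 9 genes took 1.2% of the counts for SN3593 and 1.64% for SN3595 in 3D FNHCS, 1.22% and 1.18% on flat cultures in FNHCS, and 0.226% and 0.384% with serum. From 3D to flat cultures in FNHCS their summed share thus stayed near 1.2% in SN3593 and went from 1.64% to 1.18% in SN3595, while 4 of the single genes fell. Ctsh was the largest part of the sum, with 0.38% and 0.453% of all counts in 3D FNHCS and 0.653% and 0.496% in 2D FNHCS. The counts above come from a fit without the cell lines. Since each line gave a library to every condition, the same comparison with line as a block was also fitted, and it called 1 of the 9 higher (Lgi3) and 6 lower in 2D FNHCS against 3D FNHCS, the additions being Napsa and Muc1. Over all genes that fit called 14.2% higher and 14.8% lower. For 2D FBS against 2D FNHCS the blocked fit called 7 of the 9 lower, Abca3 being the addition, against 8.41% of all genes. Fits that left out a library called fewer of all genes in 2D FNHCS against 3D FNHCS and in 2D FBS against 2D FNHCS. Some of them did so in 2D FBS against 3D FNHCS. The share of all calls that held in every such fit was not worked out. Calls lost in these fits, given below, therefore cannot be read as particular to the genes or lists named.

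**Figure D1:**
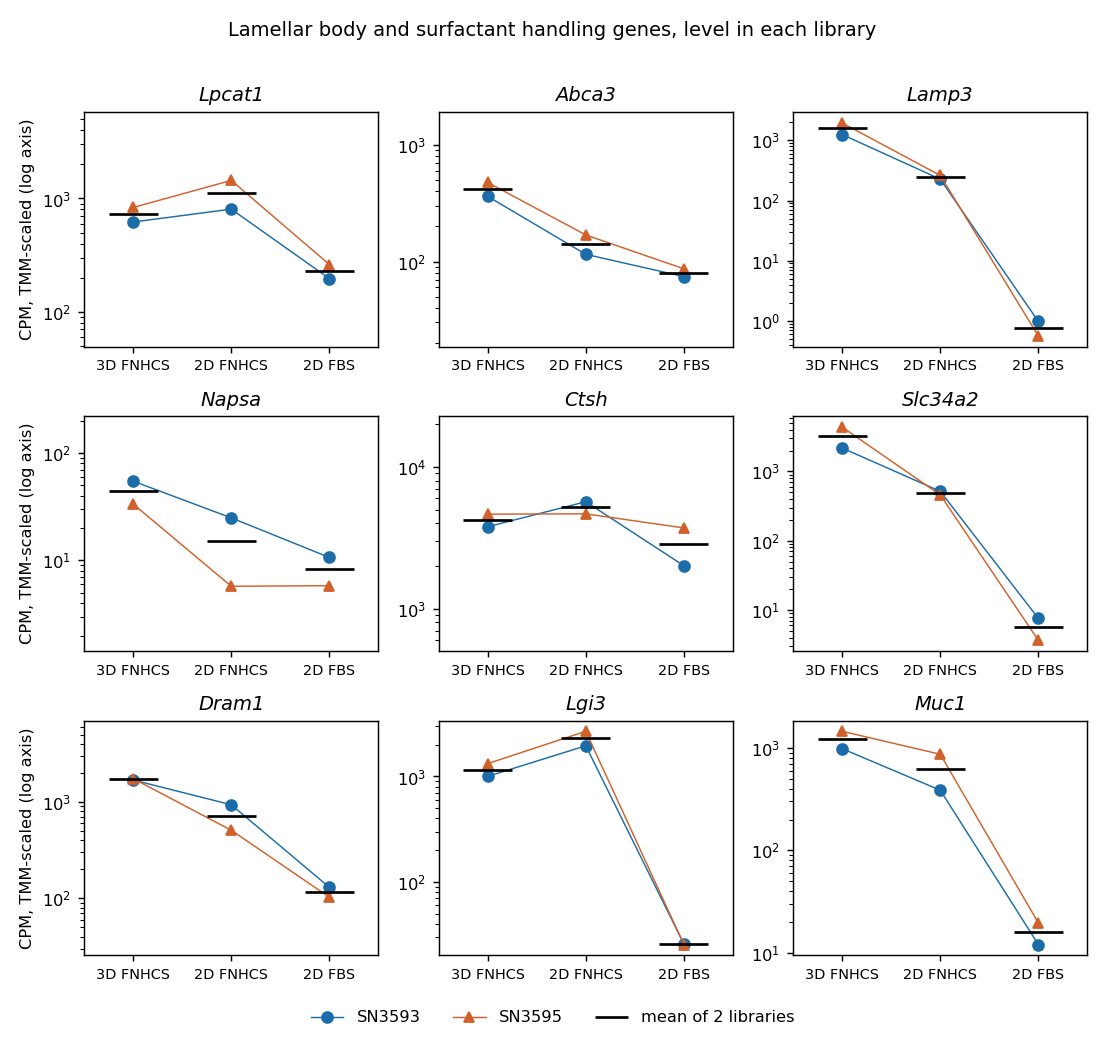
Level of each of the 9 genes in each library, in TMM-scaled CPM on a log axis, by culture condition; symbols mark the lines SN3593 and SN3595. Lamp3 and Slc34a2 step down at both changes of condition, Lgi3 is higher in 2D FNHCS than in 3D FNHCS and near 25 CPM in 2D FBS, and Ctsh stays between 2009 and 5689 CPM.

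Promoter sequences are shown for the 3 genes with a promoter in the RefSeq table whose levels fell furthest in 2D FBS (Lamp3, Slc34a2 and Muc1), and for Lpcat1, whose flat and 3D levels overlapped in FNHCS. RefSeq promoters were found for 6 of the 9 genes; Napsa, Ctsh and Lgi3 had none in the table. Each runs from 250 bases before to 50 after the start of the gene, read 5′ to 3′ on the gene's strand in build GRCm38.p6: Lamp3 at chr16:19706316-19706615 (minus strand), Slc34a2 at chr5:53049103-53049402 (plus), Muc1 at chr3:89228806-89229105 (plus) and Lpcat1 at chr13:73466981-73467280 (plus). Capitals mark matches, on either strand, to the motifs searched.
Lamp3: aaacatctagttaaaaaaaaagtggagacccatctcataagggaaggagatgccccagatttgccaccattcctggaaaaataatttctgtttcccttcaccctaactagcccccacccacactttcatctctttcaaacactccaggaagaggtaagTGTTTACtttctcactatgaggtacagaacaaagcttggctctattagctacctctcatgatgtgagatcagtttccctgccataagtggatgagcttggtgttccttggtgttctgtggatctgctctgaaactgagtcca
Slc34a2: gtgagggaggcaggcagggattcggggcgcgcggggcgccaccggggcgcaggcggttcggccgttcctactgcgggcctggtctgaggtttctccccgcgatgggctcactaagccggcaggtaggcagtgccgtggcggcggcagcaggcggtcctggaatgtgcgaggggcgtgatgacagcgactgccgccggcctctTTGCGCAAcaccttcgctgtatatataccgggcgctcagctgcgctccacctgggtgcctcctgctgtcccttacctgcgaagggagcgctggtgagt
Muc1: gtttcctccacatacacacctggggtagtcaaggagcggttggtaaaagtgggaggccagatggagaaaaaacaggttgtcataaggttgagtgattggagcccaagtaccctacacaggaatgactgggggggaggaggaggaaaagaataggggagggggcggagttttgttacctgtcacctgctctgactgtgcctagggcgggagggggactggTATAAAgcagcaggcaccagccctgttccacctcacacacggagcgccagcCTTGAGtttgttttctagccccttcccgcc
Lpcat1: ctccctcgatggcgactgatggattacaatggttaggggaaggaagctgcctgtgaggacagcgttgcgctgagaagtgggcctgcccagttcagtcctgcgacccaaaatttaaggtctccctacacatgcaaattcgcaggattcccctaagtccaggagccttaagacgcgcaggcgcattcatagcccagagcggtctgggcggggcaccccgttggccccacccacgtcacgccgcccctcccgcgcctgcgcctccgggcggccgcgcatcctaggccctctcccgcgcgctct

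The motifs searched stand for factors known to act on AT2 genes or lysosome genes: CACTCAAG and its core CTCAAG for NKX2-1, TGTTTAC and TGTTTGC for FOXA factors, TTGCNNAA for C/EBP factors, TCACGTG and its core CACGTG for the TFE family, AGATAA for GATA factors, and the TATA box TATAAA. Among the 32851 promoters of the table, the shares with a match were 1.43%, 15.9%, 3.65%, 5.07%, 10.8%, 3.77%, 7.15%, 11.2% and 13.6% in that order, with the shorter of nested motifs counted wherever it occurred. Lamp3 had TGTTTAC with its first base at -92. Slc34a2 had TTGCGCAA at -48, a letter run that reads the same on both strands. Muc1 had TATAAA at -31 and, at position 21, CTTGAG, which is CTCAAG on the other strand. Dram1 had 2 matches to the C/EBP motif, at -250 and -74, and Abca3 and Lpcat1 had none of the motifs. The promoters also differed in base composition: that of Lamp3 had 43.7% G and C with 0 CpG pairs, while Abca3, Lpcat1, Slc34a2 and Dram1 had 64% to 72.7% with 25 to 36 CpG pairs, around a median of 52.7% over all promoters. Muc1 lay between, at 55.7% with 6 CpG pairs. A match is a run of letters, not a bound site.

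Abca3 pumps phospholipids across the lamellar body membrane. Its level was 363 and 477 CPM in 3D FNHCS (SN3593 first, then SN3595, here and below), 115 and 169 CPM in 2D FNHCS, and 74.2 and 86.6 CPM in 2D FBS. Both 3D libraries were above every flat library, and the flat conditions did not overlap. Abca3 fell in 2D FNHCS against 3D FNHCS, with a log2 fold change of -1.56 ± 0.266 (SE, edgeR adjusted p = 0.0154). Without the 3D library of SN3595 the adjusted p was 0.0681, the highest of 15 alternatives, of which 14 kept the call. From 2D FNHCS to 2D FBS the log2 fold change was -0.82 ± 0.262, which did not pass the test (edgeR adjusted p = 0.0987). With line as a block it did pass, at -0.80 ± 0.16 and an edgeR adjusted p of 0.0299; over the 15 alternatives the adjusted p ranged from 0.00118 to 0.329. Against 3D FNHCS, Abca3 in 2D FBS fell, at -2.38 ± 0.273 (edgeR adjusted p = 0.00206). In the GENCODE M21 annotation an RNA on the opposite strand, D330041H03Rik, covers 9.75% of the exon bases of Abca3, and the sources used here do not say whether the counting used strand.

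Lamp3 encodes a glycoprotein of the lamellar body's limiting membrane, also known from mature dendritic cells. It had 1249 and 1949 CPM in 3D FNHCS, 226 and 261 CPM in 2D FNHCS, and 0.977 and 0.557 CPM in 2D FBS, the last being 34 and 21.89 expected counts. The 3 conditions lay far apart in both lines. Lamp3 fell in every comparison, with log2 fold changes of -2.71 ± 0.346 for 2D FNHCS against 3D FNHCS (edgeR adjusted p = 0.00843), -8.31 ± 0.458 for 2D FBS against 2D FNHCS (edgeR adjusted p = 0.00366) and -11.03 ± 0.504 for 2D FBS against 3D FNHCS (edgeR adjusted p = 0.000664). Ranked from the lowest log2 fold change of 14416 genes, Lamp3 was 7th in both comparisons with 2D FBS. Its call held in all 15 alternatives of each comparison. The 12 leukocyte and dendritic cell markers summed to 1.45 to 1.73 CPM in 3D FNHCS, 2.87 to 3.03 in 2D FNHCS and 3.51 to 9.29 in 2D FBS. Of this list, the dendritic marker Itgax was at 0 in all 6 libraries. Ccr7 was highest in 3D FNHCS, with means of 0.9, 0.0388 and 0.0684 CPM in the same order. Its flat means lay below 0.0692 to 0.0892 CPM, which equal 3 counts, and so rest on very few reads. In 2D FBS against 3D FNHCS the list had 1 gene called higher and 1 lower. The lower one was Ccr7, at -3.67 ± 0.955 (edgeR adjusted p = 0.0253).

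Dram1 encodes a lysosome membrane protein that p53 induces and that promotes autophagy. Its level was 1688 and 1745 CPM in 3D FNHCS, 934 and 508 CPM in 2D FNHCS, and 130 and 102 CPM in 2D FBS. The order of the 3 conditions was the same in both lines, with no overlap. Against 3D FNHCS it fell, with log2 fold changes of -1.25 ± 0.336 in 2D FNHCS (edgeR adjusted p = 0.0497) and -3.89 ± 0.372 in 2D FBS (edgeR adjusted p = 0.00144). The first of these calls was at the threshold. It was lost under 9 of 15 alternatives, where the adjusted p went up to 0.154, and among the fits that left out 1 library it held only without the 2D FNHCS library of SN3593. From 2D FNHCS to 2D FBS, Dram1 fell again (-2.64 ± 0.352, edgeR adjusted p = 0.0139). Leaving out SN3593 or SN3595 in 2D FBS put that adjusted p at 0.0817 or 0.0745, the others lying between 2.02e-16 and these.

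Lpcat1 attaches a fatty acid to lysophosphatidylcholine, a step in making the saturated phosphatidylcholine that dominates surfactant. Its level was 620 and 833 CPM in 3D FNHCS, 805 and 1444 CPM in 2D FNHCS, and 196 and 261 CPM in 2D FBS. The 3D and 2D FNHCS libraries overlapped, and both 2D FBS libraries lay below the rest. Lpcat1 was 0.63 ± 0.349 higher on the log2 scale in 2D FNHCS than in 3D FNHCS, a difference that did not pass the test (edgeR adjusted p = 0.246). It passed in 1 of 15 alternatives, DESeq2 with line as a block, at 0.60 ± 0.221 (DESeq2 adjusted p = 0.0233), and the adjusted p over all 15 reached 0.784. Lpcat1 fell in 2D FBS, with log2 fold changes of -2.30 ± 0.365 against 2D FNHCS (edgeR adjusted p = 0.0197) and -1.67 ± 0.357 against 3D FNHCS (edgeR adjusted p = 0.0131). Against 2D FNHCS the adjusted p was 0.124 without the SN3593 library of 2D FBS and 0.0785 without that of SN3595. Against 3D FNHCS it was 0.0613 without the 3D library of SN3595, 0.0826 and 0.0507 without those of 2D FBS. The adjusted p stayed below 0.05 in 13 and 12 of the 15 alternatives of these comparisons, with lowest values of 1.1e-21 and 2.27e-12.

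Abca3 and Lpcat1, which both serve the surfactant phospholipids, kept no fixed ratio. Within a library the ratio of Lpcat1 to Abca3 expected counts was 1.71 and 1.75 in 3D FNHCS, 6.98 and 8.54 for 2D FNHCS, and 2.64 and 3.01 for 2D FBS. Both 2D FNHCS libraries stood above the other 4. This ratio was chosen after the values were seen and is given without a test.

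Napsa and Ctsh encode proteases that take part in trimming the precursors of surfactant proteins B and C. Napsa, an aspartic protease, had 54.6 and 33.5 CPM in 3D FNHCS, 24.9 and 5.75 CPM in 2D FNHCS, and 10.7 and 5.82 CPM in 2D FBS. Both 3D libraries were above all flat libraries, while the flat conditions overlapped. The log2 fold change in 2D FNHCS against 3D FNHCS was -1.52 ± 0.684, which did not pass the test (edgeR adjusted p = 0.166). With line as a block it was -1.78 ± 0.37 and passed (edgeR adjusted p = 0.0239), and leaving out SN3593 in 2D FNHCS gave -2.94 (edgeR adjusted p = 0.0274); over 15 alternatives the adjusted p ran from 9.66e-05 to 0.441. From 2D FNHCS to 2D FBS Napsa differed by -0.89 ± 0.682 (edgeR adjusted p = 0.418). Against 3D FNHCS it fell in 2D FBS, at -2.42 ± 0.707 (edgeR adjusted p = 0.0367). Leaving out SN3593 or SN3595 in 3D FNHCS ended that call, where the adjusted p was 0.138 or 0.0662, as did leaving out either line in 2D FBS, where it was 0.0877 or 0.167, the lowest over the alternatives being 2.16e-08. The antisense gene Gm15396 covers 18.9% of the exon bases of Napsa in GENCODE M21.

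Ctsh, a cysteine protease of lysosomes in many cell types, had 3784 and 4648 CPM in 3D FNHCS, 5689 and 4671 CPM in 2D FNHCS, and 2009 and 3713 CPM in 2D FBS. Both 2D FBS libraries were the lowest, by a margin smaller than the distance between them. None of its differences passed the test: 0.30 ± 0.372 in 2D FNHCS against 3D FNHCS (edgeR adjusted p = 0.599), -0.86 ± 0.374 in 2D FBS against 2D FNHCS (edgeR adjusted p = 0.19) and -0.56 ± 0.373 in 2D FBS against 3D FNHCS (edgeR adjusted p = 0.274), on the log2 scale. Of 15 alternatives, 1 called Ctsh lower in 2D FBS against 2D FNHCS: DESeq2 with line as a block gave -0.89 ± 0.33 (DESeq2 adjusted p = 0.0301), and the adjusted p over all 15 reached 0.535. Per kilobase of its longest coding transcript, Ctsh had the highest level of the 9 genes in all 6 libraries, at 1240 to 3520 CPM per kb. Napsa had the lowest per kb in 3D FNHCS and in 2D FNHCS.

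Slc34a2 encodes a sodium-dependent phosphate transporter of the apical membrane, and its loss in people leads to calcium phosphate stones in the alveoli. Its level was 2178 and 4364 CPM in 3D FNHCS, 516 and 458 CPM in 2D FNHCS, and 7.56 and 3.65 CPM in 2D FBS. The conditions were ordered alike in both lines, without overlap, and the 3D libraries differed from each other more than the 2D FNHCS libraries did. Like Lamp3, Slc34a2 fell in all comparisons: its log2 fold change was -2.75 ± 0.485 for 2D FNHCS against 3D FNHCS (edgeR adjusted p = 0.0167), -6.44 ± 0.579 for 2D FBS against 2D FNHCS (edgeR adjusted p = 0.008) and -9.19 ± 0.65 for 2D FBS against 3D FNHCS (edgeR adjusted p = 0.000787). The first call did not hold when a library of SN3595 was left out, either the 3D one (adjusted p = 0.0575) or the 2D FNHCS one (adjusted p = 0.0664), out of a range from 2.52e-08 to 0.0664. From the lowest log2 fold change upward, Slc34a2 ranked 28th in 2D FBS against 2D FNHCS and 21st in 2D FBS against 3D FNHCS.

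Muc1 encodes a membrane mucin of the apical surface. It had 984 and 1455 CPM in 3D FNHCS, 387 and 868 CPM in 2D FNHCS, and 12.0 and 19.5 CPM in 2D FBS. No 2 conditions overlapped, though the higher 2D FNHCS library came near the lower 3D library. The log2 fold change in 2D FNHCS against 3D FNHCS was -0.96 ± 0.457, which did not pass the test (edgeR adjusted p = 0.188). With line as a block it was -1.04 ± 0.225 and passed (edgeR adjusted p = 0.0262), in a range over the alternatives from 0.000168 to 0.498. Muc1 fell in 2D FBS, at -5.31 ± 0.546 against 2D FNHCS (edgeR adjusted p = 0.00916) and -6.27 ± 0.571 against 3D FNHCS (edgeR adjusted p = 0.00132). Without the 2D FBS library of SN3593 the adjusted p against 2D FNHCS was 0.068, the highest of its 15 alternatives, and the lowest was 4.7e-96.

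Lgi3 encodes a secreted protein with leucine-rich repeats, a relative of the neuronal protein LGI1, and serves as a marker of AT2 cells. Its level was 1002 and 1325 CPM in 3D FNHCS, 1955 and 2683 CPM in 2D FNHCS, and 25.8 and 25.4 CPM in 2D FBS. Every 2D FNHCS library was above every 3D library, and 2D FBS lay far below both. The log2 fold change in 2D FNHCS against 3D FNHCS was 1.0 ± 0.272, which just missed the threshold (edgeR adjusted p = 0.0518). With line as a block it was 0.99 ± 0.235 and passed (edgeR adjusted p = 0.0331). It passed in 7 of 15 alternatives, with adjusted p from 7.46e-05 to 0.23, and in none of the 6 fits that left out a library. Lgi3 fell in 2D FBS, at -6.50 ± 0.342 against 2D FNHCS (edgeR adjusted p = 0.00346) and -5.51 ± 0.327 against 3D FNHCS (edgeR adjusted p = 0.00074).

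Lgi3 and Lamp3, both AT2 marker genes, also changed relative to each other. The ratio of Lgi3 to Lamp3 expected counts was 0.803 and 0.68 in 3D FNHCS, 8.64 and 10.3 for 2D FNHCS, and 26.4 and 45.9 for 2D FBS. In both lines it was higher at each step, with no overlap between conditions. Sftpc, the surfactant protein C gene, likewise took 26.8 and 21 counts per Lamp3 count in 3D FNHCS, 227 and 157 for 2D FNHCS, and 449 and 477 for 2D FBS. Per Lgi3 count, Sftpc took 33.4 and 31 counts in 3D FNHCS, 26.3 and 15.3 for 2D FNHCS, and 17 and 10.4 for 2D FBS, lower at each step in both lines. These ratios were also chosen after the values were seen, and the 2D FBS ratios rest on 34 and 21.89 counts of Lamp3.

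**Figure D2:**
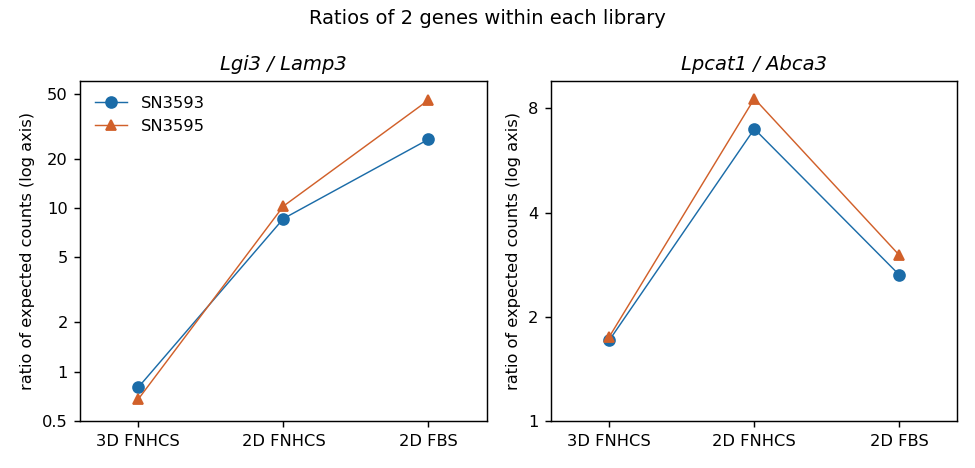
Ratio of expected counts of Lgi3 to Lamp3 (left) and of Lpcat1 to Abca3 (right) within each library, on log axes, by condition and line. The first ratio goes from 0.68 to 0.803 in 3D FNHCS up to 26.4 to 45.9 in 2D FBS, while the second is highest in 2D FNHCS, at 6.98 and 8.54.

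**Figure D3:**
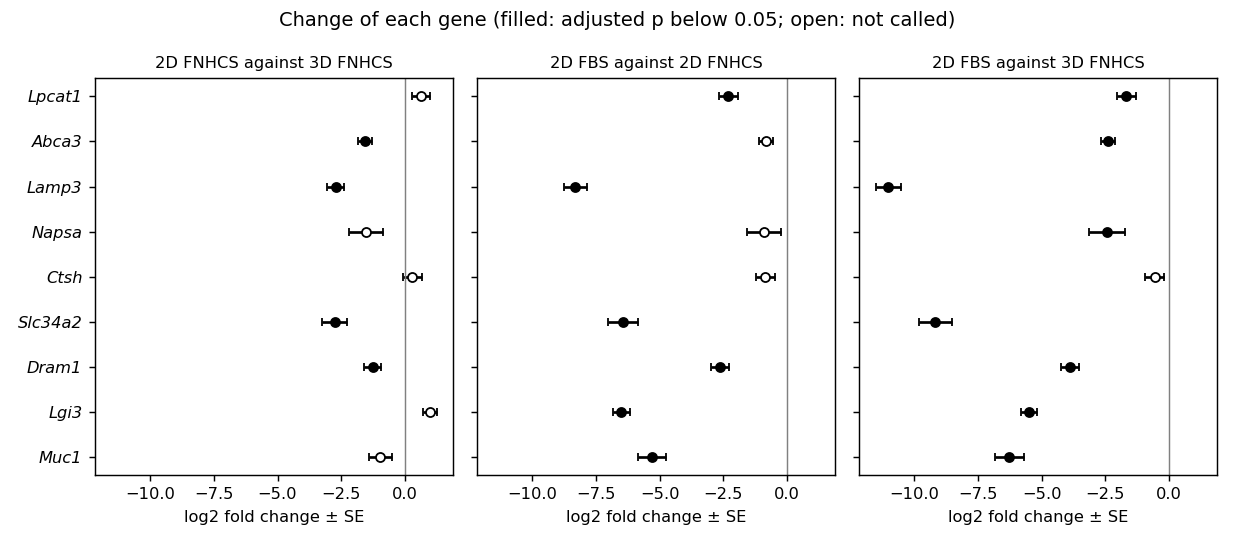
Log2 fold change of each of the 9 genes with its SE in the 3 comparisons of conditions; filled symbols passed the edgeR test at an adjusted p below 0.05. Slc34a2 and Lamp3 lie furthest from 0 on the left, at -2.75 and -2.71, and Lamp3 does in the other panels, at -8.31 and -11.03; the points of Ctsh are open in all 3 panels.

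The surfactant proteins are what the lamellar body carries. Sftpb and Sftpa1 fell in 2D FNHCS against 3D FNHCS, with log2 fold changes of -2.62 ± 0.326 (edgeR adjusted p = 0.0079) and -3.28 ± 0.423 (edgeR adjusted p = 0.00864). Sftpc was at 33500 and 41010 CPM in 3D FNHCS and 51430 and 40990 CPM in 2D FNHCS, with a log2 fold change of 0.31 ± 0.419 (edgeR adjusted p = 0.626). Sftpd had -1.23 ± 0.53 (edgeR adjusted p = 0.153). Between the flat conditions Sftpa1, Sftpc and Sftpb fell in 2D FBS, at -8.24, -7.04 and -5.84 (edgeR adjusted p = 0.00492, 0.00613 and 0.00507), and Sftpd had -1.81 (edgeR adjusted p = 0.0844; -1.89 and 0.031 with line as a block). Sftpc lost that call without the 2D FBS library of SN3593 (adjusted p = 0.0577, the highest of the fits that left out a library). Against 3D FNHCS all 4 fell in 2D FBS.

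Counts for this and the following lists stand beside these shares of all genes tested. In 2D FNHCS against 3D FNHCS 9.77% were lower and 8.63% higher, in 2D FBS against 2D FNHCS 4.77% and 5.85%, and in 2D FBS against 3D FNHCS 20.5% and 19.9%. Of 18 genes of surfactant lipid synthesis, 6 fell and 2 rose in 2D FNHCS against 3D FNHCS, with a median log2 fold change of -0.57. Gpam, which starts glycerolipid synthesis, fell, at -2.67 ± 0.246 (edgeR adjusted p = 0.0044), as did the fatty acid elongase Elovl6, at -3.09 ± 0.36 (edgeR adjusted p = 0.00695). Between the flat conditions 3 of the 18 fell in 2D FBS and none rose, among them the desaturase Scd1, at -4.08 ± 0.647 (edgeR adjusted p = 0.0197), and fatty acid synthase Fasn, at -2.14 ± 0.377 (edgeR adjusted p = 0.0245). Against 3D FNHCS, 11 fell in 2D FBS and 1 rose, the phosphatidylcholine synthesis gene Pcyt1b. Scd1 lost its call without either 2D FBS library (adjusted p up to 0.0888) and Fasn without any 1 of the 4 libraries compared (up to 0.13). Of the calls in the 3 comparisons, 2 of 8, 0 of 3 and 8 of 12 held in every fit that left out a library.

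Lists of wider lysosome and surfactant enzymes had more genes called higher than lower on flat cultures in FNHCS. Of 14 tested genes for surfactant processing and turnover enzymes, 7 rose and none fell in 2D FNHCS against 3D FNHCS, with a median of 1.14. Examples are the acid ceramidase Asah1, up by 1.82 ± 0.326 (edgeR adjusted p = 0.0174), and the aspartic protease Ctse, up by 3.24 ± 0.571 (edgeR adjusted p = 0.0167), a relative of Napsa. Of 14 lysosome membrane genes, 5 rose and 1 fell, with a median of 0.61. Lamp1, the general lysosomal relative of Lamp3, went from 738 and 873 CPM in 3D FNHCS to 3517 and 2760 CPM in 2D FNHCS, a rise of 1.96 ± 0.27 (edgeR adjusted p = 0.00968). All its flat libraries in FNHCS stood above the 3D libraries, while Lamp3 lay the other way round. Ctns, the lysosomal cystine exporter, rose by 1.86 ± 0.25 (edgeR adjusted p = 0.00932). Without the 3D library of SN3593 the adjusted p of Asah1, Ctse, Lamp1 and Ctns was no longer below 0.05, and Asah1 and Ctse also lost the call without that of SN3595, with highest values over the left-out libraries of 0.103, 0.0853, 0.066 and 0.0547. Of the 7 enzyme calls and the 6 lysosome membrane calls, 0 held in every fit that left out a library.

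For 2D FBS against 2D FNHCS the enzyme list had 3 genes lower and none higher of 14, with a median of 0.01, and the lysosome membrane list 2 lower and none higher, with a median of -0.28. The dipeptidyl peptidase Ctsc fell, at -2.64 ± 0.291 with an edgeR adjusted p of 0.0101, which was 0.0772 without the 2D FBS library of SN3593. Against 3D FNHCS the enzyme list had 7 higher and 2 lower in 2D FBS, the lower ones being Ctsc and the sterol carrier Npc2, and the lysosome membrane list 2 higher (Lamp1 and the proton pump subunit Atp6v1h) and 1 lower (Cd68, with an adjusted p of 0.0562 once SN3595 in 2D FBS was left out).

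Genes of lamellar body transport and biogenesis gave 5 higher and 1 lower of 19 in 2D FNHCS against 3D FNHCS, 0 higher and 1 lower in 2D FBS against 2D FNHCS, and 4 higher and 2 lower in 2D FBS against 3D FNHCS. For the last comparison, 19.9% of all genes were higher and 20.5% lower. Abca1, a cholesterol exporter and relative of Abca3, was at 0.317 and 0.255 CPM in 3D FNHCS, 17.9 and 9.48 for 2D FNHCS, and 2.62 and 1.72 for 2D FBS. It rose by 5.56 ± 0.511 in 2D FNHCS against 3D FNHCS (edgeR adjusted p = 0.0044). Lyst, whose mutation enlarges lysosome-related organelles, fell there, at -1.64 ± 0.327 (edgeR adjusted p = 0.0227), a call lost without any 1 of the 4 libraries compared, with adjusted p up to 0.103.

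For release and recycling, 3 of 21 genes rose and 1 fell in 2D FNHCS against 3D FNHCS, against 8.63% of all genes higher and 9.77% lower. Syt7, a calcium sensor of lysosome exocytosis, rose by 2.92 ± 0.45 (edgeR adjusted p = 0.012), and Rab27a, a GTPase that docks secretory granules, fell, at -2.97 ± 0.485 (edgeR adjusted p = 0.0141); without either 3D library both calls were lost, with adjusted p up to 0.065 and 0.0573. The transcription factor gene Tfcp2l1 also rose, as did the myosin gene Myo5c, whose adjusted p was 0.0528 once SN3593 in 3D FNHCS was left out. The same list had in 2D FBS against 2D FNHCS 3 higher and 2 lower, and against 3D FNHCS 7 higher and 1 lower, the last being Rab27a, at -3.76 ± 0.505 (edgeR adjusted p = 0.00302).

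Among 18 autophagy and p53 target genes, 4 rose and none fell in 2D FNHCS against 3D FNHCS, where Dram1 was lower. They were Trp53inp1, Ccng1, Bax and Map1lc3b, of which the cell cycle regulator Ccng1 rose by 1.27 ± 0.199 on the log2 scale (edgeR adjusted p = 0.0127). Ccng1 lost that call without either 3D library (adjusted p up to 0.0745), and none of the 4 calls held in every fit that left out a library. Against 3D FNHCS, 10 rose in 2D FBS and 2 fell, including Dram2, a relative of Dram1, at -0.99 ± 0.199 (edgeR adjusted p = 0.0108, and up to 0.0614 without SN3595 in 3D FNHCS or SN3593 in 2D FBS). The list had 1 higher and 2 lower in 2D FBS against 2D FNHCS.

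**Figure D4:**
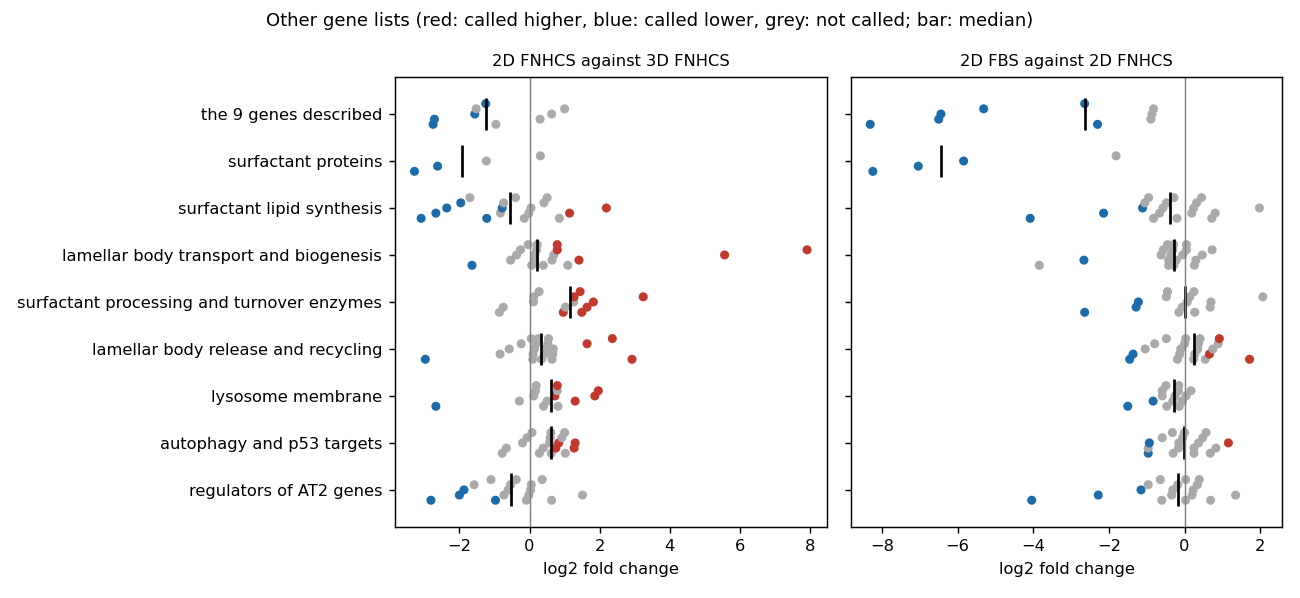
Log2 fold change of each tested gene (1 point per gene) in the 9 genes and 8 other lists, for 2D FNHCS against 3D FNHCS (left) and 2D FBS against 2D FNHCS (right); red and blue points passed the edgeR test as higher and lower, grey ones did not, and bars mark medians. On the left the 9 genes have 4 blue and no red points, with a median of -1.25, while the enzyme list has 7 red and no blue points, with a median of 1.14.

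Of 17 regulators of AT2 genes, 4 fell and none rose in 2D FNHCS against 3D FNHCS, 3 fell and none rose in 2D FBS against 2D FNHCS, and 7 fell and 1 rose in 2D FBS against 3D FNHCS. Nkx2-1, the main lung lineage factor, was at 131 and 194 CPM in 3D FNHCS, 83.4 and 166 for 2D FNHCS, and 80.8 and 83.4 for 2D FBS. Its log2 fold changes of -0.38, -0.60 and -0.99 did not pass the test (edgeR adjusted p = 0.477, 0.304 and 0.0705). With line as a block the last was -0.94 and passed (edgeR adjusted p = 0.0275). Cebpa, which encodes a C/EBP factor of late lung development, had 64.7 and 82.8 CPM in 3D FNHCS, 11.1 and 9.83 for 2D FNHCS, and 2.82 and 1.52 for 2D FBS. It fell at both steps, by log2 fold changes of -2.81 ± 0.313 and -2.28 ± 0.32 (edgeR adjusted p = 0.00612 and 0.0158), and these calls held in every fit that left out a library. Etv5, a factor downstream of FGF signalling, had 644 and 612 CPM in 3D FNHCS, 207 and 108 for 2D FNHCS, and 11.2 and 7.92 for 2D FBS, and fell with log2 fold changes of -2.0 ± 0.355 and -4.04 ± 0.389 (edgeR adjusted p = 0.0171 and 0.008). Etv5 lost the first call without either 3D library (adjusted p up to 0.0728) and the second without the 2D FBS library of SN3593 (adjusted p = 0.0608).

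Of 37 close relatives of the 9 genes, 36 had a row and 28 passed the filter. In 2D FNHCS against 3D FNHCS 6 of them rose and 2 fell, in 2D FBS against 2D FNHCS 1 rose and 3 fell, and in 2D FBS against 3D FNHCS 10 rose and 6 fell. The median log2 fold change was 0.86, -0.20 and 0.80, on the other side of 0 from the 9 genes in the first and the last. The lists overlap: Lamp1, Ctse, Ctsc, Abca1 and Dram2, among others, were also counted in lists above. Lgi2, a relative of Lgi3, had 11 and 5.19 CPM in 3D FNHCS, 0.233 and 0.657 for 2D FNHCS, and 0.0575 and 0.0506 for 2D FBS, and it fell in 2D FNHCS against 3D FNHCS, at -4.17 ± 0.654 (edgeR adjusted p = 0.0127), a call that ended when SN3593 in 3D FNHCS was left out (adjusted p = 0.0649). Lgi3 itself had a higher level there, without passing the test. Adam22 and Adam11, 2 of the 3 genes in the list of LGI receptors, were low throughout, at up to 4.19 and 0.652 CPM. Both fell in 2D FBS against 2D FNHCS, at -2.44 ± 0.509 and -2.61 ± 0.621 (edgeR adjusted p = 0.0367 and 0.0498), calls that left-out libraries ended: any 1 of the 6 for Adam11 (adjusted p up to 0.205) and any but the SN3595 library of 2D FNHCS for Adam22 (up to 0.178).

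With line as a block, some list counts moved by more than 1.5 times. In 2D FNHCS against 3D FNHCS the blocked fit called 5 genes of release and recycling and 11 AT1 markers higher, and 1 enzyme gene, 2 autophagy and p53 target genes and 4 close relatives lower. For 2D FBS against 2D FNHCS it called 6 genes of lipid synthesis and 2 of lamellar body transport lower, and 5 genes of release and recycling, 2 autophagy and p53 target genes, 1 gene of lamellar body transport and 1 AT2 marker higher. For 2D FBS against 3D FNHCS it called 9 of 19 genes of lamellar body transport higher and 4 lower, 11 of 21 genes of release and recycling higher and 2 lower, and 3 lipid synthesis genes and 2 regulators higher. Of all genes tested, the blocked fit called 14.2% higher and 14.8% lower in 2D FNHCS against 3D FNHCS, 10.3% and 8.41% in 2D FBS against 2D FNHCS, and 24.4% and 25% in 2D FBS against 3D FNHCS.

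Markers of AT2 cells other than the 9 genes fell in 10 of 20 cases in 2D FNHCS against 3D FNHCS, 11 of 20 in 2D FBS against 2D FNHCS and 17 of 20 in 2D FBS against 3D FNHCS, with none higher. AT1 markers rose in 7, 3 and 17 of 20 in the same order, with none lower. The AT2 list includes the surfactant proteins, Scd1, Cebpa and Etv5, which were also counted in lists above. In every fit that left out a library, 6 of 10, 4 of 11 and 14 of 17 AT2 calls held, as did 2 of 7, 0 of 3 and 9 of 17 AT1 calls. Ager, an AT1 receptor, was at 326 and 243 CPM in 3D FNHCS, 2083 and 4785 for 2D FNHCS, and 7535 and 10120 for 2D FBS. Of other cell types, the 6 mesothelial markers summed to 4.9 to 12.3 CPM in 3D FNHCS, 7.02 to 307 in 2D FNHCS and 553 to 2150 in 2D FBS. Nearly all of it was Msln, with Calb2 at 0 in all 6 libraries. Nkain4 had means of 0.0142, 0.202 and 3.06 CPM in the same order, and Upk3b 0, 0 and 0.362 CPM. Msln and Nkain4, the 2 that passed the filter, were both called higher in 2D FBS against 3D FNHCS (edgeR adjusted p = 0.0253 and 0.0151). The 12 airway markers summed to 34.2 to 54.1, 9.01 to 47.4 and 4.65 to 10.6 CPM, and the 10 gastrointestinal markers to 19.3 to 23.5, 1.67 to 40.8 and 0.603 to 0.81 CPM. In FNHCS medium most of the gastrointestinal sum came from 1 gene. Only 2 of the 10 gastrointestinal markers passed the filter, and Cdx2 was at 0 in all 6 libraries. The fibroblast list stayed at or below 1.62 CPM and the endothelial list at or below 1.84 CPM, with Cldn5 at 0 in all libraries. The part of these cell type markers in the changes of the 9 genes was not tested.

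Between the lines, none of the 9 genes passed the edgeR test within condition, against 0.00694% of all genes (1 of 14416). At an unadjusted p below 0.05, 3 were higher in SN3595 (Abca3, Lpcat1 and Muc1) and 1 lower (Napsa); limma-voom called none after adjustment, and DESeq2 called 2 higher and 1 lower. Muc1 was higher in SN3595 in 3 of 3 conditions, by 0.56, 1.17 and 0.70 on the log2 scale in 3D FNHCS, 2D FNHCS and 2D FBS, with a fitted difference of 0.81 ± 0.184 (edgeR adjusted p = 0.165). Napsa was lower in SN3595 in 3 of 3 conditions, with log2 ratios of -0.71, -2.11 and -0.87 (fitted difference -1.22 ± 0.302, edgeR adjusted p = 0.177). Slc34a2 had no common sign, at 1.0, -0.17 and -1.05, and Lamp3 was higher in SN3595 in 3D and 2D FNHCS, by 0.64 and 0.21, and lower in 2D FBS, at -0.81.

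Within each line, the log2 ratio of 2D FNHCS to 3D FNHCS was -1.65 and -1.50 for Abca3, -2.46 and -2.90 for Lamp3, -2.08 and -3.25 for Slc34a2 and -0.85 and -1.78 for Dram1, in SN3593 and SN3595. Lgi3 gave 0.96 and 1.02, the closest agreement between lines among the 9 genes. Ctsh gave 0.59 and 0.01. For 2D FBS against 2D FNHCS the ratios were -7.86 and -8.87 for Lamp3, -6.09 and -6.97 for Slc34a2, -6.25 and -6.72 for Lgi3, and -5.01 and -5.47 for Muc1. Lamp3 had the lowest ratio in each line.

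The genes of most similar pattern were found by the Pearson correlation of log2(CPM + 1) with the mean standardised profile of the 9 genes over the 6 libraries. The 8325 candidates passed the filter and had a mean of at least 10 CPM, with the 9 genes, predicted genes and symbols turned into dates left out. The closest were Hadh (r = 0.9997), a fatty acid oxidation enzyme, Wfdc2 (r = 0.9989), a secreted protease inhibitor, and Mbtd1 (r = 0.9988), a chromatin protein. Next came Ctsc (r = 0.9982) and Lrig1 (r = 0.9979), a membrane inhibitor of growth factor receptors. Their mean levels in 3D FNHCS, 2D FNHCS and 2D FBS were 133, 101 and 39.1 CPM for Hadh, 1329, 942 and 201 CPM for Wfdc2, and 1457, 804 and 129 CPM for Ctsc. Of the 9 genes, Lamp3 (0.994), Slc34a2 (0.988) and Muc1 (0.987) lay closest to the mean profile, and Ctsh (0.737) and Napsa (0.682) furthest from it. Each of the 9 is itself part of that profile. With Sftpc, the correlation was highest for Lgi3, at 0.99. These values describe 6 libraries that fall into 3 conditions and share the scaling by library size.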

How the data were processed

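The deposited values are expected counts, reads per gene as a model estimated them, fractions included. RSEM 1.3.1, Bowtie 1.2.3 and build mm9 stand in the submitters' processing notes, which give neither the annotation nor the use of strand as far as the sources used here go. Expected counts were rounded and tested with edgeR 4.0.16 in R 4.3.3: TMM scaling, filterByExpr (14416 of 23224 genes kept), and its quasi-likelihood test, adjusted by Benjamini-Hochberg over all genes kept, at 0.05. All 6 libraries entered 1 fit with a term per condition (3 residual degrees of freedom); the lines were compared with condition as a further term. SE values are approximate: the size of the log2 fold change over the square root of its F. The test was checked on simulated data.

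Lines were taken from the labels. They pair the samples, since the same line gave a library to each condition; deviations from the condition means correlated with r = 0.41, 0.243 and 0.38 for 3D with 2D FNHCS, 3D with 2D FBS and the 2D pair. Libraries of 1 condition differed by more than sampling noise (chi-square per degree of freedom of 142 to 172). Alternatives were other scalings, no filter, DESeq2 1.42.0, limma-voom 3.58.1, line as a block, the compared groups alone, and leaving out each library; the last kept the same genes, and a lone library was assumed to vary like the other groups.

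The 9 genes and the 18 other lists (274 entries with the 9; Muc16 had no row) were chosen with earlier results of these data known. Named are the 9 genes, the surfactant proteins, Nkx2-1, Cebpa, Etv5, at most the 4 called genes of lowest adjusted p per list and comparison, and the 5 genes of most similar pattern (1 list gene is not reported here); single marker genes of other cell types were named after their values were seen. Promoters come from RefSeq (GRCm38.p6), and transcript lengths and overlaps from GENCODE M21; no mm9 coordinates are given. Counts per library set the precision: 3 counts, the floor for a count of 0, equal 0.0692 to 0.0892 CPM, for counting error only. The table also holds 25 symbols turned into dates, which are not named.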

Additional observations from a re-analysis of the deposited data

Results flagged for a closer look

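Napsa, a protease gene for surfactant protein precursors, was lower in SN3593 and almost unchanged in SN3595 in 2D FBS against 2D FNHCS. The log2 ratio was -1.22 in SN3593 and 0.02, a fold of 1.01, in SN3595. The SN3595 value rests on 245 expected counts in 2D FNHCS and 230 in 2D FBS. The 2D FNHCS level was 24.9 CPM in SN3593 and 5.75 CPM in SN3595, and the 2D FBS levels were 10.7 and 5.82 CPM. The difference between the lines was not tested.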

How the results depend on the processing

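With 2 libraries per condition, counts of calls depend on the method more than directions do. In the comparisons of conditions the 9 genes kept their sign under all 15 alternatives, except Napsa in 2D FBS against 2D FNHCS, which ranged from -1.60 to 0.52 when a library was left out (0.52 without the SN3593 library of 2D FNHCS). Each comparison had 1 call for each of the 9 genes in each of the 15 alternatives. Of these, the calls that stayed on their side of the threshold numbered 110 in 2D FNHCS against 3D FNHCS, 124 in 2D FBS against 2D FNHCS and 128 in 2D FBS against 3D FNHCS. Library size alone shifted the median of all genes to 0.19, -0.33 and -0.14 in these comparisons, and upper-quartile factors shifted it to -0.19 in the last pair. The cause of the changes below was not tested.

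In 2D FNHCS against 3D FNHCS, 1 of the 9 genes was called higher under DESeq2 size factors, library size alone, upper-quartile factors, DESeq2, limma-voom and line as a replicate block, and 2 (Lgi3 and Lpcat1) under DESeq2 with the replicate block. Leaving out a library gave 1 to 5 called lower. Over all genes, 1244 were higher and 1408 lower. The higher count was 1885 by library size alone, 2073 by DESeq2, 2046 with the replicate block, 2410 by DESeq2 with the block, and 184 to 1073 with a library left out. The lower count was 2135 with the block, 2355 by DESeq2 with the block, and 381 to 1026 with a library left out.

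In 2D FBS against 2D FNHCS, leaving out a library gave 3 to 6 of the 9 called lower. Over all genes, 843 were higher and 688 lower. DESeq2 gave 1780 and 1367, the replicate block 1487 and 1213, DESeq2 with the block 2129 and 1611, the compared groups alone 478 and 350, and library size alone 1474 lower. With a library left out the range was 31 to 736 higher and 31 to 556 lower, with the 31 in each direction without the SN3593 library of 2D FBS. In 2D FBS against 3D FNHCS the same gave 1494 to 2984 higher and 1606 to 3016 lower, around 2874 and 2962. The replicate block changed no other call of the 9 genes.

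For SN3595 against SN3593, DESeq2 called 2 of the 9 higher and 1 lower. Over all genes it gave 378 higher and 370 lower, no filter gave 47 and 26, and library size alone, upper-quartile factors and each left-out library gave 0 higher, around 1 higher and 0 lower. Slc34a2 reversed to 0.04 and to 0.42 without a library of 2D FNHCS or 2D FBS, from a range of -0.59 to 0.42, and Lamp3 to -0.15 and -0.14 without a 3D library, from a range of -0.15 to 0.43.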
